A study of Mus musculus with 4 samples.

Results

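The 65 genes described here were among the most abundant transcripts in a table of 515 genes. The authors had called these 515 genes different between WT and Areg-/- Th9 cells, by marking them significant. The methods also state a fold change cut-off above 2, which most of the 515 did not reach. Of all 515, 25.2% were at least 2-fold higher in Areg-/- and 9.9% at least 2-fold lower. Of the 65 genes, 8 differed by at least 2-fold. Called different here therefore means marked significant, without that cut-off. The 65 genes were chosen by the measured values themselves. A gene was taken when the larger of its WT and Areg-/- values reached 50 FPKM (sequenced fragments of a gene, corrected for how long its transcript is and how deeply the library was read). Of the 515 genes, 76 reached this limit, and 11 of these (Il4, Lag3, Ccl4, Tbx21, Hnrnpdl, Gzma, Slc2a3, Bnip3, Egln3, Ddit4 and Il24) were left out by name, 7 with the higher value in Areg-/- and 4 with the higher value in WT. The remaining 439 genes stayed under the limit. Because the choice used both values, the levels and differences of the 65 genes are given as a description, and no test was run.

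RNA was sequenced from 2 WT and 2 Areg-/- samples of Th9 cells on the C57BL/6 background. In Areg-/- mice the amphiregulin gene is inactivated in the whole animal, so any cell of the mouse, and not T cells alone, lacked it before the culture. Naive CD4+ T cells were sorted from spleen and lymph nodes of adult mice, which the methods describe as matched for age and sex. Xist, which silences an X chromosome in female cells, was listed at 15.5 FPKM in WT and 43.4 FPKM in Areg-/-, and 0 genes of the Y chromosome were listed. The part of sex in the values below was not tested. The T cells were activated through CD3 and CD28 with TGF-β1 and IL-4, and both genotypes received these agents. The WT column name in the table adds that no doxycycline was given, whereas the Areg-/- name does not mention doxycycline. It was not established that the WT column was made from the WT samples of this series, and every WT value and every difference below rests on taking it so. For each gene the table holds 1 FPKM value per genotype and none per sample. The spread between samples is therefore unknown, and it cannot be said for any gene whether the genotypes overlapped. The methods give the depth only as an approximate range of reads per sample, not for each library. The labels do not say whether the samples of a genotype came from separate mice. Areg had 0 rows in the table, so the knockout was not checked here. Of 8 T helper markers, Il9 alone was listed, at 3.82 FPKM in WT and 1.24 in Areg-/-, and since the table analysed here holds only genes called different, the identity of the cells could not be checked from it.

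Th9 cells are CD4+ helper T cells that secrete IL-9 and take part in immunity to worms, in allergic inflammation and in responses to tumours. Amphiregulin is a ligand of the epidermal growth factor receptor (EGFR), a receptor tyrosine kinase. Transcripts at the top of the abundance range in an activated T cell typically encode cytoskeletal proteins, calcium-binding proteins, granule proteins, mitochondrial subunits and adhesion receptors.

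The sequences upstream of 6 of the genes are shown. These genes were past a 2-fold difference in either direction, lay at the top of the abundance range, or faced each other across a short gap. The 6 were picked by hand, and others that meet these terms, such as Myo6 and Sub1, are not shown. How often a motif occurs can therefore not be read from them, and counts over all available promoters are given below. The printed sequences are RefSeq promoter stretches of GRCm38.p6, written 5′ to 3′ on the strand of the gene and limited to bases outside the annotated exons. Capitals mark matches to TGANTCA (the AP-1 site, where Fos and Jun family proteins bind), TTCNNNGAA (the STAT site) or TATAAA (the TATA box). ACGTG, the core of the hypoxia response element, was searched as well, had no match in these stretches, and would also have been in capitals.
Ecm1, chr3:95739570-95739819, minus strand: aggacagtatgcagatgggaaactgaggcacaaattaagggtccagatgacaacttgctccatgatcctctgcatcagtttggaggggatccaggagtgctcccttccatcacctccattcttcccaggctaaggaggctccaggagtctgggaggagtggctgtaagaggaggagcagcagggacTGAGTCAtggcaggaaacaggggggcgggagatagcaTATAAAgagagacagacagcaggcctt
Ctla2a, chr13:60936626-60936875, minus strand: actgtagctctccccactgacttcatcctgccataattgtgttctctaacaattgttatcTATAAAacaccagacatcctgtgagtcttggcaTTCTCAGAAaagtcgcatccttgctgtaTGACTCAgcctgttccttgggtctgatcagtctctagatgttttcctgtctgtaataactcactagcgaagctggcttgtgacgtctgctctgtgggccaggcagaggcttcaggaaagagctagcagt
Gzmb, chr14:56262335-56262584, minus strand: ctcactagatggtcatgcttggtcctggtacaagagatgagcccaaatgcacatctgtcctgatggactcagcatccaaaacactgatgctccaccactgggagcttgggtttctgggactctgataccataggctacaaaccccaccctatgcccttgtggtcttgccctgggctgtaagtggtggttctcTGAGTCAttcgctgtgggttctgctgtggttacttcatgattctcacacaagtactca
Serpina3g, chr12:104235897-104236146, plus strand: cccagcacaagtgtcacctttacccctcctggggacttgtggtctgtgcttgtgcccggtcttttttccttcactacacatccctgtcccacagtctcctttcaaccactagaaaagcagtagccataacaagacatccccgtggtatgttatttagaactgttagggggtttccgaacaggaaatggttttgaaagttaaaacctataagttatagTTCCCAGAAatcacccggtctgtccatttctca
1110059E24Rik, chr19:21652977-21653041, minus strand: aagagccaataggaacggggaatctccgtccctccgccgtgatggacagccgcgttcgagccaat
Abhd17b, chr19:21653059-21653184, plus strand: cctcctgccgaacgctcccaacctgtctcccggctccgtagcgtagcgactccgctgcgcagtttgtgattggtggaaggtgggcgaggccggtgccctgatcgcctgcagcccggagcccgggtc

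Among the 65 genes, 49 had the higher value in Areg-/- Th9 cells and 16 the higher value in WT Th9 cells. The 49 are 75.4% of the 65, beside 69.1% of all 515 listed genes. That share of 69.1% is also the background for the counts by function group below. Each group is small, so a count near that share says little about a function. A difference of at least 2-fold was less frequent than among all listed genes, most of which were rarer transcripts. Ecm1, Lgals3, Ctla2a, Abhd17b, 1110059E24Rik and Myo6 were at least 2-fold higher in Areg-/-, which is 9.23% of the 65 against 25.2% of all listed genes. Serpina3g and Iigp1 were at least 2-fold lower, which is 3.08% against 9.9%. Among the 187 listed genes nearest in abundance, from 10 to under 50 FPKM, 20 were at least 2-fold higher and 13 at least 2-fold lower. The share higher was near that of the 65 genes, and the share lower was above it. The differences of the 65 genes ran from -1.18 to 1.65 on the log2 scale (Areg-/- over WT, the quantity in parentheses after a gene's FPKM values or its name). Their median was 0.49, whereas the median of all listed genes was 0.62. Of the 49 genes with the higher value in Areg-/-, 16 lay above that median of 0.62 and 32 lay below it, with Igfbp4 on it. Centred on that median, the division of the 65 genes was therefore 16 higher and 48 lower. No function group had a median above 0.62, so the directions given by group hold on the scale of the deposited values and not after such centring. The median of 0.62 covers only genes called different, so it is not the level of an unchanged gene.

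**Figure D1:**
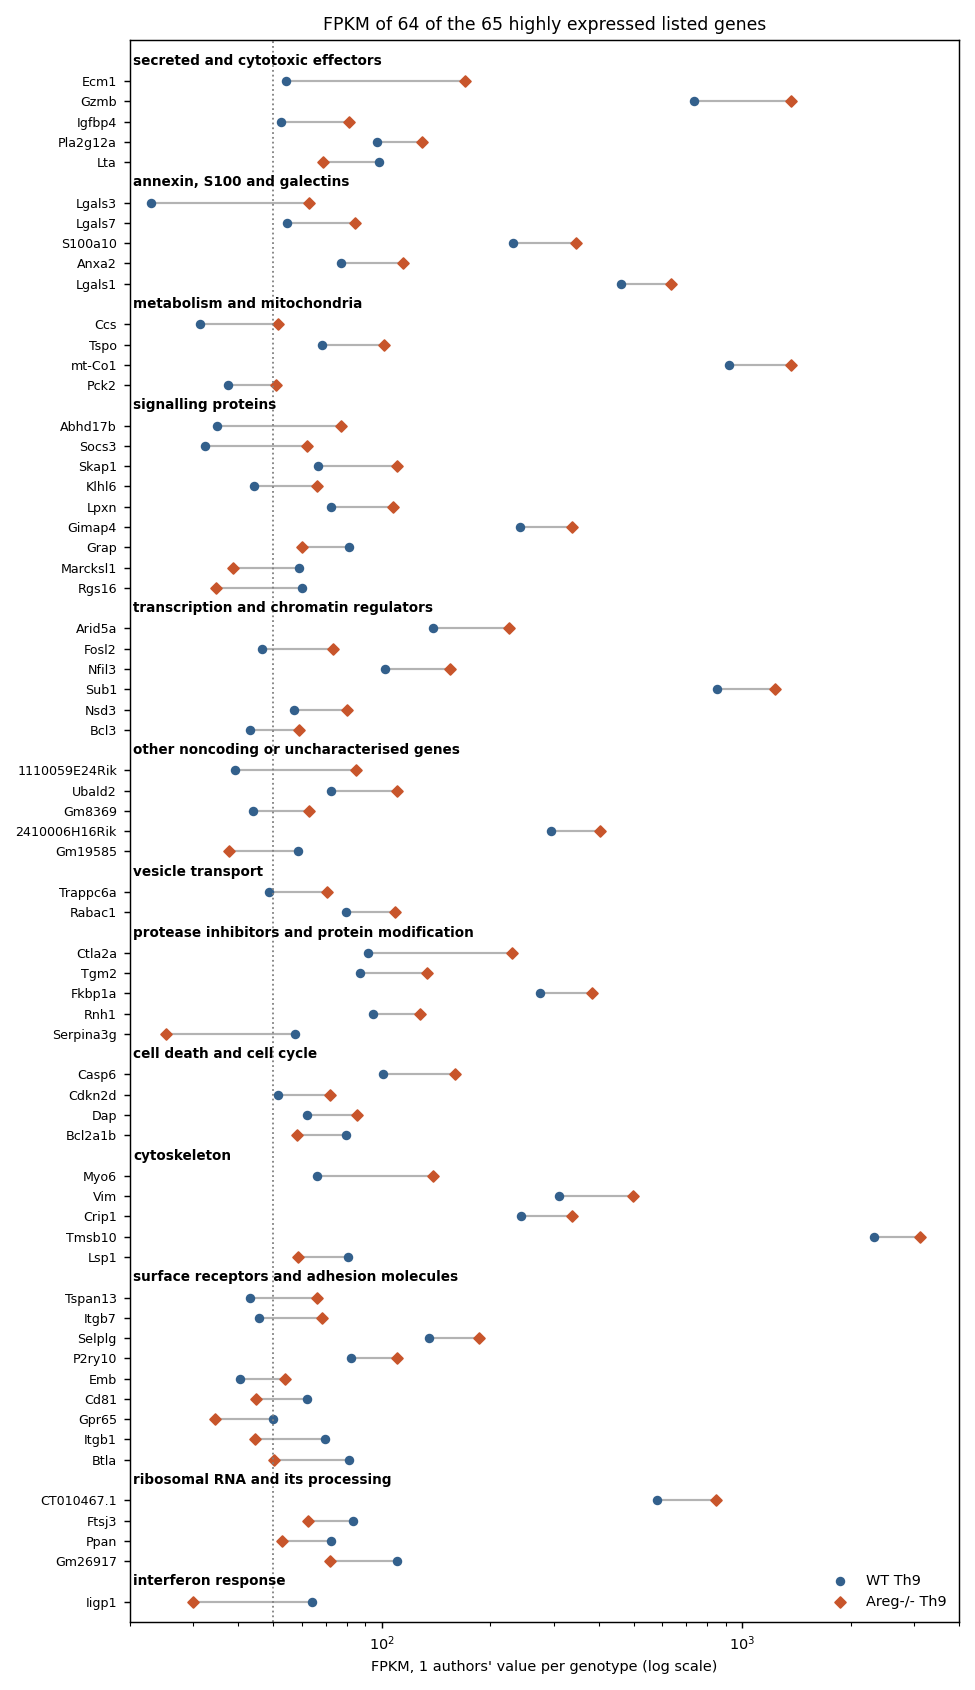
FPKM of 64 of the 65 genes (x axis, log scale) in WT Th9 cells (blue circles) and Areg-/- Th9 cells (red diamonds), ordered by function and, within a function, by the difference; each point is the authors' single value for a genotype, so no error bar can be drawn, and the dotted line marks 50 FPKM. The values span 22.9 to 2312 FPKM in WT and 25.3 to 3112 in Areg-/-, and in 48 of the 64 genes shown the diamond lies to the right of the circle, as against 16 of the 65 genes above the median of all listed genes.

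The most abundant genes mostly had the higher value in Areg-/-. Of the 30 genes whose larger value was at least 100 FPKM, 29 were higher in Areg-/- and 1, Gm26917, was lower. Of the 35 genes between 50 and 100 FPKM, 20 were higher and 15 were lower. Both counts depend on the genes left out by name, since all 36 listed genes of at least 100 FPKM had 33 higher and 3 lower, Hnrnpdl and Il4 being the other two. They also depend on the line itself, which was set on the larger of the same values that give the direction. Ecm1 (54.2 FPKM in WT and 171 in Areg-/-) and Myo6 (66.1 and 139), among others, passed 100 FPKM in Areg-/- alone. Gm26917 passed it in WT alone (111 and 71.8). Below 50 FPKM the share of listed genes higher in Areg-/- did not rise with abundance. It was 77.8% under 1 FPKM, 68.4% from 1 to under 10 FPKM and 67.4% from 10 to under 50 FPKM. The genes lower in Areg-/- had WT values of 50.1 to 111 FPKM. Together the 65 genes held 69.5% of the summed FPKM of all listed genes in WT and 72.7% in Areg-/-. The limit of 50 FPKM was reached in both genotypes by 42 genes, in WT alone by 8 and in Areg-/- alone by 15.

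Among the genes called different, the size of the difference was smaller at this level of expression than among the rarer transcripts. The median absolute log2 difference was 0.58 in the 65 genes, 0.67 in the 187 listed genes from 10 to under 50 FPKM, 1.07 in the 234 from 1 to under 10 FPKM and 1.16 in the 18 under 1 FPKM. A gene is listed only if the authors called it different, and the smallest absolute difference that was listed was 0.41 in the 65 genes and 0.56 under 1 FPKM. The part of this calling in the order of the medians was not tested. Within the 65 genes, 23 differed by under 0.5 on the log2 scale, 34 by 0.5 to under 1, and 8 by 1 or more.

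**Figure D2:**
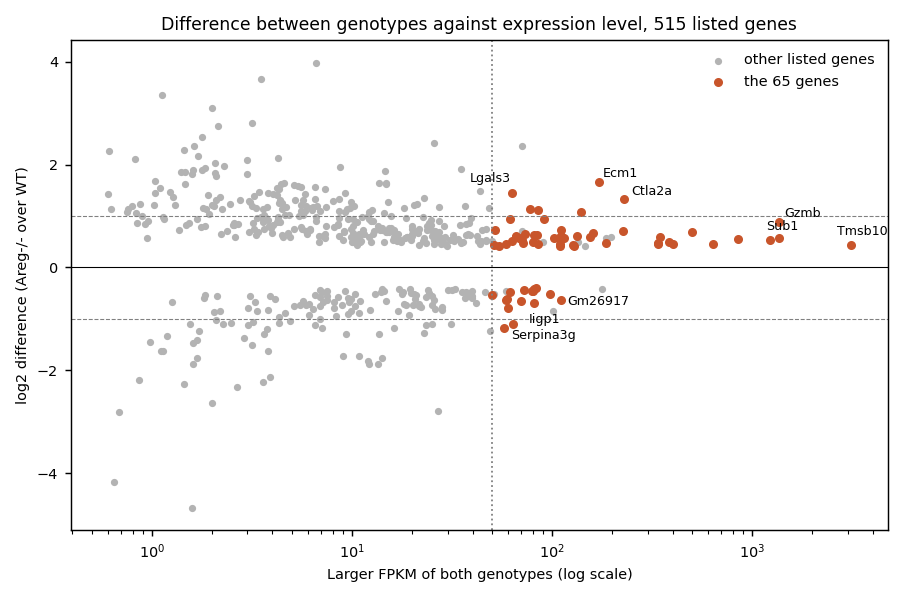
Log2 difference (Areg-/- over WT, y axis) against the larger of both FPKM values (x axis, log scale) for the 515 listed genes, with the 65 genes in red and the other listed genes in grey; the dotted line marks 50 FPKM and the dashed lines a 2-fold difference. The red points span -1.18 to 1.65, the grey points under the limit span -4.67 to 3.98, and to the right of 100 FPKM a single red point, Gm26917, is below 0.

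Secreted and cytotoxic proteins comprised 5 genes, 4 of them with the higher value in Areg-/- (80%, beside 69.1% of all listed genes). Gzmb, the serine protease of cytotoxic granules, stood at 737 FPKM in WT and at 1362 FPKM in Areg-/-, a log2 difference of 0.89. It lies at chr14:56258838-56262260 and was one of 3 granzyme genes listed, all with the higher value in Areg-/-. Gzmc reached 14.6 FPKM in WT and 27.2 FPKM in Areg-/-, and Gzma, left out by name above, 13.7 and 70.8. Of 5 defining markers of CD8 T and NK cells, which also carry granzymes, Cd8a was listed at 2.13 and 3.32 FPKM and Klrd1 at 1.44 and 4.40 FPKM, in the same order of genotypes, and 3 were not listed. Their part in the granzyme values was not tested. In bulk RNA, fewer cells of a type and less RNA per cell cannot be told apart.

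Ecm1, a secreted extracellular matrix protein that is also made by helper T cells, had the largest log2 difference of the 65 genes. Its value was 54.2 FPKM in WT and 171 FPKM in Areg-/- (1.65 on the log2 scale). The gene lies at chr3:95734147-95739569, and the stretch printed above, which ends at its first exon, holds 1 AP-1 match followed by a TATA box. Igfbp4, a secreted binding protein for insulin-like growth factors, was at 52.5 FPKM in WT and 80.9 in Areg-/-. Pla2g12a, a secreted phospholipase A2, was at 97.0 and 129, respectively. Lta, which encodes lymphotoxin α of the TNF family, was the exception in this group with 98.1 FPKM in WT and 68.9 in Areg-/- (-0.51). Its neighbour Tnf, 1157 bases away and under the abundance limit, had its higher value in WT as well (28.1 and 16.4 FPKM).

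Galectins, S100 proteins and annexins, the small lectins and calcium-binding proteins, had 5 members here, all with the higher value in Areg-/-. Their median log2 difference was 0.58, and 2 of the 5 exceeded the listed median of 0.62. Lgals3 (galectin-3, a lectin that binds glycans on T cell surface receptors) was at 22.9 FPKM in WT and 62.7 in Areg-/- (1.45). Lgals1 (galectin-1) was more abundant in both genotypes, at 461 and 633 FPKM (0.46). Lgals7 was at 54.7 FPKM in WT and 84.4 in Areg-/-, but it overlaps Gm10648 on the opposite strand. Its given locus also differs from the annotated gene, as is the case for 16 of the 65 genes in all. The other galectin in the table, Lgals4, remained under the limit at 3.23 and 6.87 FPKM, so all 4 listed galectins had the higher value in Areg-/-, 3 of them above 0.62.

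Anxa2 and S100a10 encode the partners of a membrane-binding complex in which annexin A2 is held by a dimer of S100A10. S100a10 was at 231 FPKM in WT and 346 in Areg-/-, a log2 difference of 0.58. Anxa2 was at 77.3 FPKM in WT and 114 in Areg-/-, a log2 difference of 0.57. Both partners thus differed by nearly the same factor. All 5 listed S100 genes had the higher value in Areg-/-, and of these S100a11 was the gene nearest to the limit from outside (34.8 and 49.9 FPKM). The annexins did not share one direction, since Anxa3 was at 3.16 FPKM in WT and 1.10 in Areg-/-.

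Cytoskeletal genes included the most abundant transcript of the table. Tmsb10, which encodes the actin monomer-binding thymosin β10, was at 2312 FPKM in WT and 3112 in Areg-/- (0.43). Vim, the intermediate filament protein vimentin, was at 309.8 FPKM in WT and 498 in Areg-/- (0.69). The group held 5 genes, 4 with the higher value in Areg-/- (80%, beside 69.1% of all listed genes). Of these 4, Vim and Myo6 were above the listed median. Myo6, the myosin that walks toward the minus end of actin filaments, was at 66.1 FPKM in WT and 139 in Areg-/- (1.07), the only cytoskeletal gene here past 2-fold. Crip1, a LIM domain protein, was at 244 and 336 FPKM. In contrast, Lsp1, a leukocyte F-actin-binding protein, was at 80.5 FPKM in WT and 58.6 in Areg-/- (-0.46).

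Surface receptors and adhesion molecules were the largest group, with 10 genes, and the most evenly divided, with 6 higher and 4 lower in Areg-/- and a median of 0.42. Selplg, the adhesion molecule PSGL-1 that lets leukocytes roll on endothelium, was at 135 FPKM in WT and 187 in Areg-/- (0.47).

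The β integrin chains went in different directions. Itgb7, the β7 chain used for homing to the gut, was at 45.6 FPKM in WT and 68.1 in Areg-/- (0.58). Itgb1, the β1 chain that binds matrix proteins such as fibronectin, was at 69.8 FPKM in WT and 44.6 in Areg-/- (-0.65). Itgb7 was thus below Itgb1 in WT and above it in Areg-/- on this length-scaled measure. The third listed β chain, Itgb3, was under the limit with 17.7 and 26.2 FPKM.

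The other receptors with the higher value in WT were Btla, Gpr65 and Cd81. Btla, an inhibitory receptor of the immunoglobulin superfamily that binds HVEM, was at 81.3 FPKM in WT and 50.4 in Areg-/- (-0.69). Gpr65, a receptor that senses extracellular protons, was at 50.1 and 34.4 FPKM (-0.54). Cd81, a tetraspanin of the immune synapse, was at 61.9 and 44.7 FPKM (-0.47). These 3 genes and Itgb1 made up the lower set, but inhibitory receptors as such had no common direction. Lag3, left out by name, was at 125 FPKM in WT and 187 in Areg-/-. On the other side stood P2ry10, a lysophospholipid receptor (82.1 and 110.0 FPKM), the tetraspanin Tspan13 (43.3 and 66.3 FPKM) and Emb, an immunoglobulin superfamily partner of lactate transporters (40.5 and 54.1 FPKM). Among surface receptor genes under the limit, which were sorted by symbol patterns, 20 of 24 had the higher value in Areg-/-. The same was true of 300 of all 439 listed genes under the limit (68.3%).

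Signalling proteins comprised 9 genes, 6 higher and 3 lower in Areg-/-, with a median of 0.57. The share higher was 66.7%, beside 69.1% of all listed genes. Socs3, the feedback inhibitor of JAK-STAT signalling downstream of IL-6 family cytokines, was at 32.4 FPKM in WT and 61.9 in Areg-/- (0.93). It was the only listed member of the Socs and Cish family. Rgs16, which shortens G protein signals from chemokine receptors, was at 60.2 FPKM in WT and 34.7 in Areg-/- (-0.80). Abhd17b, an enzyme that removes palmitate from signalling proteins, was at 35.0 and 77.2 FPKM (1.14), the one gene of the group past 2-fold.

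The adaptors of antigen receptor signalling were split as well. Skap1, which links the T cell receptor to integrin activation, was at 66.7 FPKM in WT and 110.3 in Areg-/- (0.72). Grap, a GRB2-related adaptor, was at 81.0 FPKM in WT and 60.3 in Areg-/- (-0.43), although it overlaps Slc5a10 on the opposite strand. Gimap4, a lymphocyte GTPase, was the most abundant of the group, at 242 and 337 FPKM (0.48). Lpxn, a paxillin relative at adhesion sites (0.57), and Klhl6, a cullin adaptor (0.58), had the higher value in Areg-/-. Marcksl1, an actin-binding substrate of protein kinase C, had the higher value in WT (59.1 against 38.7 FPKM, -0.61).

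All 6 transcription and chromatin regulators had the higher value in Areg-/-, in a range of 0.45 to 0.71 and with a median of 0.56. This count depends on placement by hand and on the names left out, since the transcription factor Tbx21, also over the limit, was at 51.1 FPKM in WT and 35.7 in Areg-/- (-0.52). Sub1, the transcriptional coactivator PC4, was at 851 FPKM in WT and 1231 in Areg-/- (0.53), the most abundant of them. Arid5a, a protein that stabilises cytokine mRNAs, was at 138 FPKM in WT and 226 in Areg-/- (0.71). Fosl2, a Fos family subunit of AP-1, was at 46.7 and 73.1 FPKM (0.65), and it shared with Arid5a a difference above the listed median. Nfil3, a basic leucine zipper repressor that controls helper cytokine genes, was at 102 and 155 FPKM (0.60). Bcl3, an IκB family protein that acts in the nucleus (0.45), and Nsd3, a histone methyltransferase (0.49), were closer to WT. Under the limit, the transcription factors found by symbol patterns divided evenly, with 6 higher and 6 lower.

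**Figure D3:**
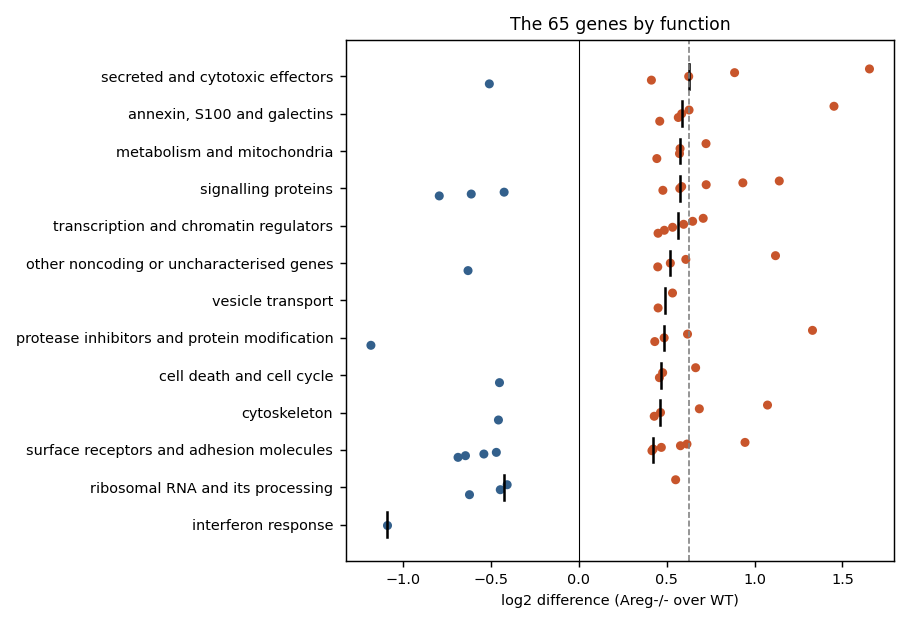
Log2 difference (Areg-/- over WT, x axis) of each of the 65 genes by function (rows), with genes higher in Areg-/- in red and lower ones in blue; the short black bar is the median of a group, the solid line marks 0 and the dashed line the median of all listed genes, 0.62. Points are single values without error, and the medians run from -1.09 in the interferon row, which holds 1 gene, to 0.62 in the secreted and cytotoxic row.

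Protease inhibitors and protein-modifying enzymes numbered 5, of which 4 had the higher value in Areg-/- (80%, beside 69.1% of all listed genes). Ctla2a, an inhibitor of cathepsin L-like proteases in activated T cells, was at 91.4 FPKM in WT and 229.7 in Areg-/- (1.33). Serpina3g, a serpin that protects lymphocytes from lysosomal cathepsins, was at 57.5 FPKM in WT and 25.3 in Areg-/- (-1.18), the lowest log2 difference of the 65 genes. Both act on cathepsins and differed in opposite directions. Their printed upstream stretches also differ, since that of Ctla2a holds 1 match each to the AP-1, STAT and TATA letters and that of Serpina3g 1 STAT match. Ctla2a overlaps Gm49391 and Gm49393 on its own strand and has a close relative, Ctla2b, so its value is uncertain. The same holds for Serpina3g, one of a cluster of similar serpin genes. Fkbp1a, the prolyl isomerase bound by rapamycin and FK506, was at 274 and 384 FPKM (0.49). Tgm2, a protein-crosslinking transglutaminase (0.62), and Rnh1, the inhibitor of secreted ribonucleases (0.43), had the higher value in Areg-/- too.

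Genes of metabolism and mitochondria numbered 4, all with the higher value in Areg-/- and 1, Ccs, above the listed median. mt-Co1, the cytochrome c oxidase subunit encoded by the mitochondrial genome, was at 919.8 FPKM in WT and 1368 in Areg-/- (0.57). It was the only gene of the mitochondrial genome in the table. Tspo, a cholesterol-binding protein of the outer mitochondrial membrane, was at 68.3 and 102 FPKM (0.58), and it overlaps Mcat on the opposite strand. Ccs, the copper chaperone of superoxide dismutase, was at 31.3 and 51.7 FPKM (0.72), and Pck2, the mitochondrial phosphoenolpyruvate carboxykinase, at 37.6 and 51.1 FPKM (0.44). Ccs and Pck2 passed the limit only in Areg-/-, by less than 2 FPKM.

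Among genes of cell death and the cell cycle, 3 of 4 had the higher value in Areg-/- (75%, beside 69.1% of all listed genes). Casp6, an executioner caspase, was at 101 FPKM in WT and 159.7 in Areg-/- (0.66). Bcl2a1b, a survival protein of the BCL2 family, was at 79.4 FPKM in WT and 58.1 in Areg-/- (-0.45). It has near-identical mouse paralogs, which could share its reads. Cdkn2d, the cyclin-dependent kinase inhibitor p19INK4d (0.48), and Dap, a regulator of autophagy (0.46), had the higher value in Areg-/-. The vesicle transport genes Rabac1, a Rab-binding protein of the Golgi (0.45), and Trappc6a, a subunit of a vesicle tethering complex (0.53), did so as well.

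Ribosomal RNA and its processing was the one group of more than 1 gene in which most members had the higher value in WT. This held for 3 of 4, with a median of -0.43. The group was filled by hand with earlier results known, and the symbol patterns had put Gm26917 under noncoding RNAs. Both the count and the median depend on this placement. Ppan, a factor in the assembly of the large ribosomal subunit, was at 72.2 FPKM in WT and 52.9 in Areg-/- (-0.45). Ftsj3, which takes part in pre-rRNA processing, was at 83.2 FPKM in WT and 62.7 in Areg-/- (-0.41). The other pair are a noncoding RNA gene and an rRNA gene 11 bases apart, and they went in opposite directions. Gm26917, at chr17:39843013-39846341 on the plus strand, was at 111 FPKM in WT and 71.8 in Areg-/- (-0.62). CT010467.1, at chr17:39846353-39848827 on the minus strand, was at 578 FPKM in WT and 847 in Areg-/- (0.55). CT010467.1 overlaps AY036118 on its own strand and Gm42418 on the opposite strand. The libraries were made from poly(A)-selected RNA, so both values depend on what rRNA was carried through the selection, and the part of this was not tested. Ribosomal protein genes had 0 members, and 1 of them, Rpl39l, was listed at all.

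Iigp1, an interferon-induced GTPase that acts on vacuoles of intracellular pathogens, was the only interferon response gene among the 65. It stood at 64.0 FPKM in WT and 30.002 in Areg-/- (-1.09), one of the pair of genes at least 2-fold lower in Areg-/-. Of the listed interferon and antigen presentation genes under the limit, 5 were lower, namely Gbp10, Isg20, Ifih1, Gbp6 and Irgm1, and 5 were higher, namely Ifitm3 and the histocompatibility genes H2-Ab1, H2-Ob, H2-DMb1 and H2-Q10. These genes are named after their values were seen. The lower 5 ran from -1.76 (Gbp10) to -0.65 (Irgm1) on the log2 scale, the same direction as Iigp1. The set was found by symbol patterns, which missed other interferon-induced genes, such as Tgtp1 and Zbp1, both with the higher value in WT. Genes missed on either side were not counted, so the even division depends on the patterns.

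A further 5 genes are noncoding or have no established function in T cells. 1110059E24Rik, an uncharacterised protein-coding gene, was at 39.2 FPKM in WT and 85.0 in Areg-/- (1.12). 2410006H16Rik, a host transcript of the small nucleolar RNAs Snord49a, Snord49b and Snord65, was at 295 and 402 FPKM (0.45). Gm19585, a long noncoding RNA, was at 58.6 and 37.8 FPKM (-0.63) and was the only one of the 5 with the higher value in WT. Ubald2 (0.61) and Gm8369 (0.52) had the higher value in Areg-/-.

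Position on the chromosome gave 1 pair with closely matched values. 1110059E24Rik (chr19:21581202-21652976, minus strand) and Abhd17b (chr19:21653185-21685637, plus strand) are transcribed away from each other across a gap of 208 bases, and their log2 differences were 1.12 and 1.14. The stretches printed for them both lie inside this gap, hold 60% and 69.0% G and C, and have no match to the 4 motifs. They are only 65 and 126 bases long, because annotated exons were left out. The promoter counts below use all windows of a gene, with the exon bases and the 50 bases after the start kept. In those counts 1110059E24Rik has AP-1, hypoxia response core and STAT matches. Which of the added bases hold them was not recorded. Pla2g12a and Casp6, 5599 bases apart on the same strand of chromosome 3, both had the higher value in Areg-/- (0.41 and 0.66). Gm26917 and CT010467.1, described above, were the third pair of the 65 genes within 10000 bases. Across all listed genes there were 16 such pairs, of which 14 shared a direction. Since 69.1% of all listed genes were higher in Areg-/-, many pairs share a direction wherever they lie. The genes of some pairs also overlap and could share reads, namely 4931406G06Rik with 4932438H23Rik and 1700097N02Rik with Dnah8. A part of position in the shared directions was not tested.

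The promoter windows of RefSeq, 250 bases before to 50 bases after the start, were found for 50 of the 65 genes. An AP-1 match was present in 7 of the 38 genes with the higher value in Areg-/- (18.4%), in 1 of 12 with the higher value in WT and in 8.97% of 27025 genes of the genome. The 8 genes were 1110059E24Rik, Anxa2, Bcl2a1b, Ctla2a, Ecm1, Gzmb, P2ry10 and Rnh1, of which Bcl2a1b had the higher value in WT. A hypoxia response core was present in 9 of 38 and 3 of 12 genes against 21.8% of the genome, and a STAT site in 4 of 38 and 2 of 12 against 9.55%. A TATA box was present in 7 of 38 and 4 of 12 genes against 15.7%. Each motif was searched on both strands and counted on its own, so a base can belong to more than 1 match, and a match is a stretch of letters rather than a bound site.

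Transcripts of the 65 genes were short. Their longest annotated transcripts had a median of 2026 bases, whereas those of the 439 listed genes under the limit had a median of 3172 bases. The G and C content was 51.7% and 50.4%, respectively. Of the 65 genes, 61 are protein coding, and they lie on 20 chromosomes when the mitochondrial genome is counted as 1. Another annotated gene overlaps 25 of the 65. For 16 of the 65 the given locus differs from the annotated gene, among them Iigp1, Abhd17b and Ctla2a, which were past 2-fold. The sources used here do not give whether counting used the strand, so reads from overlapping genes cannot be told apart.

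At the limit itself the closest genes inside were Gpr65, Pck2 and Ccs, with larger values of 50.1, 51.1 and 51.7 FPKM. The closest outside were S100a11 (49.9 FPKM in Areg-/-), Nr4a3 (49.0 FPKM in WT and 20.9 in Areg-/-) and Lilrb4a (22.0 FPKM in WT and 48.6 in Areg-/-). Nr4a3, an orphan nuclear receptor induced by T cell receptor signals, and Lilrb4a, an inhibitory receptor, both differed by more than 2-fold (-1.23 and 1.15), as 8 of the 65 genes inside the limit did.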

How the data were processed

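The deposited table was made by the authors with Cuffdiff after quality control with FastQC, alignment to GRCm38 with TopHat2 and Bowtie2, and read counting, per the labels and the methods; versions are not given in the labels. FPKM values in the deposited table are those of the authors, 1 per genotype and gene. The authors' fold changes, test statistics, p-values and q-values were not used, and all 515 rows are marked significant.

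The log2 difference was computed as the Areg-/- value over the WT value, without a pseudocount. A 2-fold difference was counted when the larger value was at least 2 times the smaller. The 65 genes, their groups and the motifs were chosen with earlier results of these data known. Groups were first drawn from symbol patterns, but all 65 genes were then placed by hand, by known function, which departs from the written plan. Every gene could be named, and 1 of the 65 is counted but not reported here. Coordinates come from GENCODE release M21 (all 515 identifiers matched) and promoters from RefSeq. Calculations were tested on simulated data. No per-sample value was used, so no test, interval or replicate error was computed. Alternatives were other FPKM and fold limits, pseudocounts of 0.1 and 1, centring on the listed median and keeping the genes left out. Python 3.11.15, numpy 2.4.6, pandas 2.3.3 and matplotlib 3.10.9 were used.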

Additional observations from a re-analysis of the deposited data

How the results depend on the processing

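With a limit of 30 FPKM there were 105 genes, 75 higher and 30 lower in Areg-/-, and with a limit of 100 FPKM there were 30, of which 29 were higher and 1 was lower. When the smaller value had to reach 50 FPKM, 42 genes remained. Centring on the median of all listed genes (0.62) turned the division to 16 higher and 48 lower (24.6% higher), with 1 gene at least 2-fold higher and 16 at least 2-fold lower. That median covers only genes called different and does not mark unchanged genes. Genes between 0 and 0.62 change side by construction, so the centring cannot show whether directions depend on the scale. Directions are given on the scale of the deposited values alone. At a fold limit of 1.5, 21 genes passed as higher and 8 as lower. Pseudocounts of 0.1 and 1 left 6 and 2 genes past 2-fold and moved no single gene by more than 0.0388 on the log2 scale. Keeping the genes left out by name gave 76 genes, 56 higher and 20 lower. The values have no replicate error, no exact depth for each library and no genes that the authors did not call. These limits apply to each statement. No paired analysis was possible because no value for a single sample is given in the files used here. Leaving out a replicate could not be done for the same reason.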
